A study of Mus musculus with 12 samples.

Results

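The axon guidance ligands and receptors comprised 54 named genes of the ephrin, Eph, semaphorin, plexin, neuropilin, Slit, Robo, netrin and netrin receptor families, chosen as a list and not by their values. Of these, 53 had a probe set with 1 gene symbol, and the brightest such probe set, by its mean over 12 arrays, stood for each gene, out of 18193 genes with such a probe set. Genes entered the test when some group averaged over 5.18, the median log2 signal of the table, which held for 48 of the 54 members (27 ligands and 21 receptors) among 12787 genes tested. Epha5, Ephb6, Sema3d, Sema4a and Robo2 lay below that level in every group, and Ephb2 had no such probe set among those used here. Expression was measured on 1-colour oligonucleotide arrays in 6 groups of 2 arrays, all of p53-deficient (p53-/-) cells of BL6 mice. NSCL61, OPCL61 and ASTL61 are stable lines carrying the oncogenic Ras form HRasL61, and NSC (neural stem cells), OPC (oligodendrocyte precursor cells) and AST (astrocytes) are their parents. The parental NSC came from the telencephalon at embryonic day 14.5, AST were made from them with 10% fetal calf serum over 3 weeks, and OPC with PDGFAA, bFGF and 0.25% serum followed by immunopanning. The lines also received EGFP and neomycin resistance by electroporation, and were selected with neomycin (0.5 mg/ml) and sorted as green cells. These steps are not given for the parents, so their effect and that of HRasL61 cannot be told apart. The labels do not say whether the 2 arrays of a group came from separate cultures, so p-values measure only a spread between arrays, which may be technical. That spread was pooled for each gene over the 6 groups, although it was unequal. The SD of the replicate 1 minus replicate 2 difference over the tested members ran from 0.24 in NSCL61 to 0.72 in NSC.

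Guidance cues steer growing axons and migrating cells by attraction or repulsion. Ephrins are membrane-bound ligands of the Eph receptor tyrosine kinases and signal in both directions between touching cells. Semaphorins act through plexins, and the secreted class 3 semaphorins mostly need a neuropilin to bind their plexin. Slits are secreted repellents that bind Robo receptors, and netrins attract through Dcc or repel through Unc5 receptors. In the developing forebrain these systems guide axons and migrating neurons and precursors, and oligodendrocyte precursors respond to several of them as they spread.

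The group labels were set against marker genes before the results. The NSC arrays went against their label. Of 10 neural stem cell markers, 9 lay above 5.18 in NSCL61, against 5 in NSC, where Prom1, Fabp7, Hes5, Fut4 and Lhx2 lay below. The mean over the list was 8.13 and 8.05 on the NSCL61 arrays, against 6.002 and 6.22 on the NSC arrays. It was 8.19 and 7.99 in OPCL61 and 8.23 and 8.23 in OPC (8 of 10 above 5.18 in each). In ASTL61 it was 7.13 and 7.02, and in AST 7.15 and 7.12 (7 above in each), so the list was lowest in NSC and did not set NSCL61 apart. Sox2, a stem cell transcription factor, averaged 11.75 ± 0.13 in NSCL61 and 5.60 ± 1.69 in NSC (SD, n = 2 each). Fibroblast and pericyte markers ran the other way: the mean over 10 genes was 5.38 and 5.37 in NSCL61 (5 above 5.18; Col1a1, Lum, Pdgfrb, Thy1 and Postn below), against 11.61 and 11.21 in NSC (10 above). The same list averaged 5.21 and 4.97 in OPCL61, 4.74 and 4.58 in OPC, 9.24 and 9.59 in ASTL61 and 8.92 and 8.28 in AST. OPCL61 carried 7 of 10 precursor markers above 5.18 and OPC carried 9, with means over the list of 6.37 and 5.98 in OPCL61 and 9.84 and 10.28 in OPC. The astrocyte markers did not set AST apart either: the mean over 10 genes was 6.09 and 6.28 in ASTL61 and 6.10 and 6.17 in AST, with 6.31 and 6.53 in NSC and 8.59 and 8.35 in OPC. In AST 7 of the 10 lay above 5.18, with Aqp4, Slc1a2 and Aldh1l1 below, against 6 in NSC and 8 in OPC. Endothelial markers lay below 5.18 for all but 1 of 7 genes in every group, and microglial markers for all but 1 or 2 of 8. These marker differences move with the NSCL61 and NSC, the OPCL61 and OPC, and the OPC, AST and NSC comparisons below, and their part in the results was not tested. In whole cultures, fewer cells of a type and less RNA per cell cannot be told apart. The array medians lay between 5.16 and 5.21. The 18S control signal differed between replicates 1 and 2 of NSCL61 (8.06 and 11.67), NSC (7.91 and 12.13) and OPC (8.71 and 12.59). It differed less in ASTL61 (10.29 and 8.72), OPCL61 (9.48 and 8.69) and AST (8.42 and 9.06), and its part in the results was not tested.

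Members passed in each direction in NSCL61 and in OPCL61, and none of the members tested passed in the astrocyte line. In NSCL61 minus NSC, 23 of 48 members passed an adjusted p of 0.05 (12 higher, 11 lower in NSCL61), where 37.8% of all genes tested passed. In OPCL61 minus OPC, 28 passed (18 higher, 10 lower in OPCL61), where 48.3% of all genes passed. Those 18 hold Sema6a, whose probe sets disagree in direction. The shares of members, 47.9% and 58.3%, are to be read against those backgrounds. In NSCL61, 9 ligands were higher and 4 lower, with 3 receptors higher and 7 lower. In OPCL61, 13 ligands were higher and 2 lower, with 5 receptors higher and 8 lower. The median log2 change of the 48 members was 0.02 in NSCL61 (0.04 over all genes tested) and 0.24 in OPCL61 (0.05 over all genes tested). Without any 1 of the 12 arrays, the count lay between 18 and 23 in NSCL61 and between 21 and 31 in OPCL61.

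**Figure D1:**
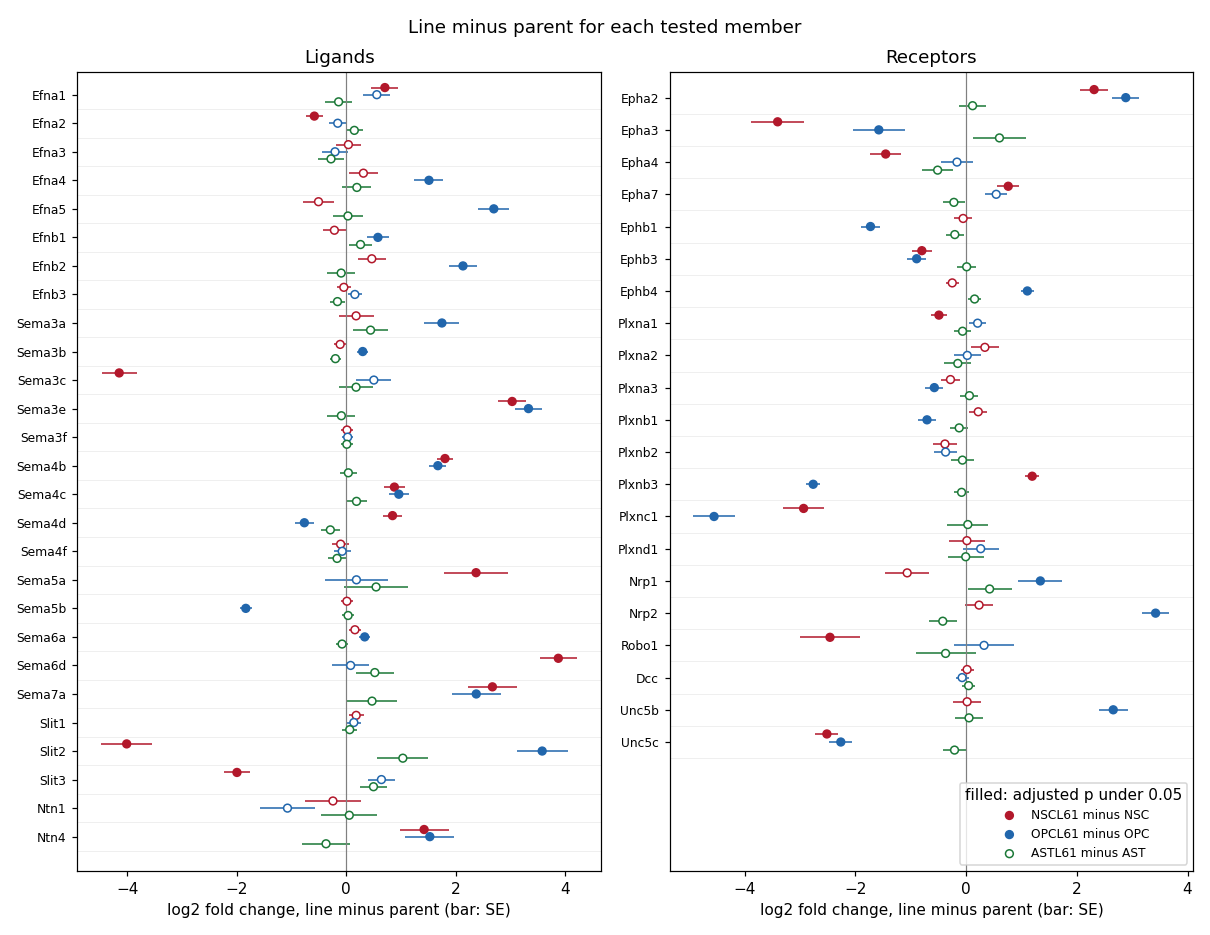
Log2 fold change of each tested member, line minus parent, for NSCL61 (red), OPCL61 (blue) and ASTL61 (green), with ligands on the left and receptors on the right. Bars are standard errors of the limma fit on 2 arrays a group, and filled points passed an adjusted p of 0.05 over all genes tested. Red and blue filled points lie on both sides of 0, and no green point is filled.

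**Figure D2:**
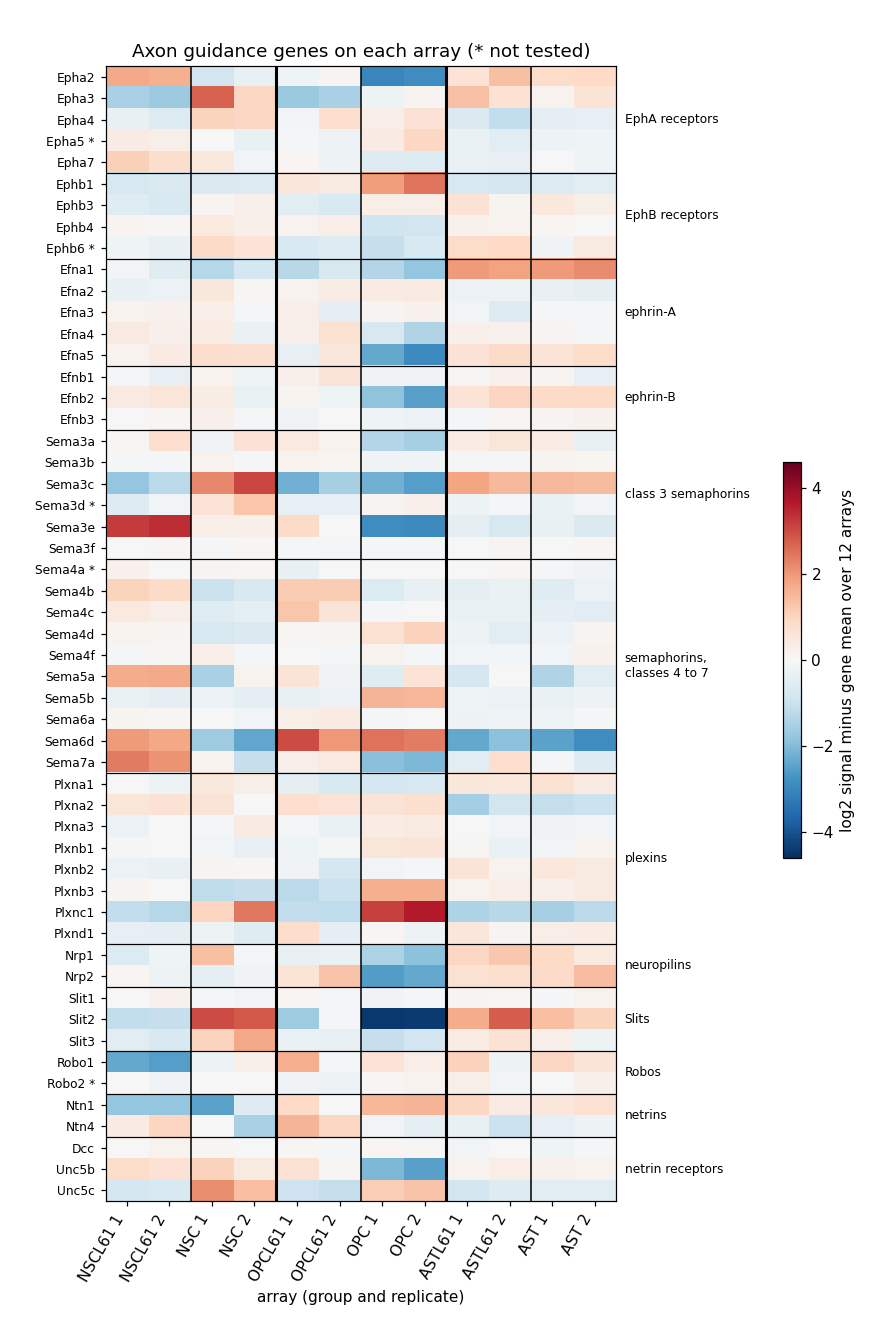
Log2 signal of the 53 members with a probe set on each of the 12 arrays (columns, 2 a group, line left of its parent), each gene minus its own mean over the arrays. Rows are grouped by family and an asterisk marks the 5 genes that were not tested. Rows such as Slit2, Sema3c, Sema3e and Plxnc1 change colour between groups, and the ASTL61 and AST columns look alike.

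In 10 cases a member changed the same way in both lines, in comparisons that share no array. Epha2, Ntn4, Sema3e, Sema4b, Sema4c and Sema7a were higher in NSCL61 and in OPCL61 than in their parents, which is 12.5% of the tested members where 9.49% of all genes were higher in both. These 6 were 26.1% of the members that passed in NSCL61 and 21.4% of those that passed in OPCL61. Epha3, Ephb3, Plxnc1 and Unc5c were lower in both, 8.33% of the tested members where 6.37% of all genes were lower in both. Some members passed in both lines on a probe set other than the one used. In NSCL61 and then OPCL61, Sema3d was lower (-3.12 and -2.09) and Plxna2 higher (0.67 and 0.69). Sema6a passed there in opposite directions (1.23 and -0.65). These are not in the shares given here. The Epha3 signals of OPCL61 and OPC lay below 5.18 in both groups. Plxnb3, Sema4d and Slit2 passed in opposite directions, 6.25% of members where 5.80% of all genes did. These shares lie near the shares of all genes.

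Upstream sequence of members that moved in both lines is shown as a description of where such genes are transcribed from. The 250 bases before the start, from RefSeq on GRCm38.p6 and written on the strand of the gene, were searched on both strands for 3 motifs chosen after the results were seen: TGANTCA (AP-1), TGACGTCA (CRE) and CCGGAAGT (ETS). Of 32851 mouse promoters of this length, 6.75% held the first, 1.55% the second and 2.88% the third. Entries matched 46 of the 54 members, with 60 promoters. Among them the AP-1 letters were found in Sema4c and Sema4d, the CRE letters in Epha2 and the ETS letters in none. Of the 10 genes that moved the same way in both lines, Epha2 (chr4:141300971-141301220, plus strand) held the CRE letters with the first base 33 before the start, and 1 of 2 Sema4c promoters (chr1:36558382-36558631, minus strand) held the AP-1 letters with the first base 22 before it. Sema3e (chr5:14025026-14025275, plus strand) and Plxnc1 (chr10:94944846-94945095, minus strand), with large changes in both lines and no match, are printed beside them. A missing match says only that these letters are not in this window. Capitals mark the motif.
Epha2: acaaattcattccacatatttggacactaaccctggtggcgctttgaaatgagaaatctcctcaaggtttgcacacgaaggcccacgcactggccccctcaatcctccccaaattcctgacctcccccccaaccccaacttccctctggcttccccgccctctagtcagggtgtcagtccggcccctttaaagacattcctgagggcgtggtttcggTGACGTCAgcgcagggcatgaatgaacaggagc
Sema4c: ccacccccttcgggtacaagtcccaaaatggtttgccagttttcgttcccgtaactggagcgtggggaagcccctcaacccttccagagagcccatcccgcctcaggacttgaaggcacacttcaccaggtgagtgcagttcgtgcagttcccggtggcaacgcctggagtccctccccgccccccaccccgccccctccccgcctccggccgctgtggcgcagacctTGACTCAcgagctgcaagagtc
Sema3e: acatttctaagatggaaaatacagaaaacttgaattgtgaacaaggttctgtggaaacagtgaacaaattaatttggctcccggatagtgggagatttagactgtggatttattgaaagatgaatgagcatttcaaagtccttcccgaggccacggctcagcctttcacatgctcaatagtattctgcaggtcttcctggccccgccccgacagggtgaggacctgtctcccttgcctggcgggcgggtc
Plxnc1: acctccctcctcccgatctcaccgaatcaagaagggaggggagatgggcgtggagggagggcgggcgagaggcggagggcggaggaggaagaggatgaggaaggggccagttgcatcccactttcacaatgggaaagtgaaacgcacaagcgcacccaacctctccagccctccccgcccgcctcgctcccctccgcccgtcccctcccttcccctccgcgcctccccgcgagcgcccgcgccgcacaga

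Of 9 tested semaphorins of the membrane-bound and GPI-anchored classes 4 to 7, 6 were higher in NSCL61 than in NSC, none was lower and 3 did not pass, where 20.7% of all genes were higher. Sema6a was among those 3 on the probe set used, and was higher in NSCL61 by 1.23 on another (adjusted p 0.00260). In OPCL61, 4 were higher and 2 lower than in OPC, where 24.5% of all genes were higher and 23.8% lower. One of those 4, Sema6a, went the other way on another probe set and is described with the probe sets below. Sema7a, a GPI-anchored semaphorin that binds plexin C1, had log2 signals of 10.77 and 10.44 in NSCL61 against 8.55 and 7.31 in NSC, and of 8.67 and 8.83 in OPCL61 against 6.44 and 6.30 in OPC. No line array overlapped its parent's. The difference was 2.68 ± 0.45 (SE, adjusted p 0.00146) in NSCL61 and 2.38 ± 0.45 (adjusted p 0.00190) in OPCL61, and the difference between those changes, -0.30 ± 0.64, did not pass. Sema6d, a transmembrane ligand of plexin A1, had 9.76 and 9.56 in NSCL61 against 6.16 and 5.39 in NSC, a difference of 3.88 ± 0.34 (adjusted p 2.93e-05). In OPCL61 it had 10.81 and 9.80 against 10.30 and 10.15 in OPC, and those arrays overlapped (0.08 ± 0.34, adjusted p 0.865). Sema6d was therefore high in NSCL61, OPCL61 and OPC and low in NSC, ASTL61 and AST. Sema4b was higher by 1.81 ± 0.16 (adjusted p 2.43e-05) in NSCL61 and by 1.68 ± 0.16 (adjusted p 2.64e-05) in OPCL61, and Sema4c by 0.88 ± 0.19 (adjusted p 0.00526) and 0.96 ± 0.19 (adjusted p 0.00228). Sema4d, a ligand of B-type plexins, went apart: it was higher by 0.85 ± 0.17 (adjusted p 0.00361) in NSCL61 and fell by 0.76 ± 0.17 (adjusted p 0.00455) in OPCL61. Sema5a was higher by 2.38 ± 0.58 (adjusted p 0.0105) in NSCL61 and did not pass in OPCL61 (0.19 ± 0.58, adjusted p 0.815). That call depended on single arrays: the difference was 1.55 without NSC replicate 1 (adjusted p 0.0679), 2.38 without NSCL61 replicate 1 (adjusted p 0.0544) and 2.37 without NSCL61 replicate 2 (adjusted p 0.0519). Sema5b had 5.27 and 5.33 in OPCL61 against 7.14 and 7.12 in OPC, a difference of -1.84 ± 0.11 (adjusted p 1.35e-06), and stayed between 5.13 and 5.40 on the other 8 arrays.

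Secreted class 3 semaphorins moved in different directions. Sema3e, a ligand of plexin D1 that needs no neuropilin, had 10.06 and 10.23 in NSCL61 against 7.12 and 7.10 in NSC, and 7.74 and 6.83 in OPCL61 against 3.98 and 3.91 in OPC. It was higher by 3.04 ± 0.25 (adjusted p 2.07e-05) in NSCL61 and by 3.33 ± 0.25 (adjusted p 7.78e-06) in OPCL61. Its receptor Plxnd1 passed in neither line, at 0.02 ± 0.32 (adjusted p 0.977) in NSCL61 and 0.26 ± 0.32 (adjusted p 0.535) in OPCL61. Sema3c had 5.74 and 6.25 in NSCL61 against 9.71 and 10.58 in NSC, a difference of -4.15 ± 0.32 (adjusted p 1.20e-05), the largest fall among the members in that line. In OPCL61, where its parent was already low, Sema3c had 5.29 and 5.98 against 5.28 and 4.97 in OPC (0.51 ± 0.32, adjusted p 0.219). Sema3a, a repellent that binds neuropilin 1, had 8.92 and 8.63 in OPCL61 against 7.10 and 6.95 in OPC, a difference of 1.75 ± 0.32 (adjusted p 0.00162). In NSCL61 it did not pass (0.18 ± 0.32, adjusted p 0.705). Sema3b passed narrowly in OPCL61 at 0.30 ± 0.11 (adjusted p 0.0394) and lost the call without any of several arrays, from an adjusted p of 0.0562 to 0.129 without OPCL61 replicate 1.

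On the probe sets used, none of 8 plexins was higher and 4 were lower in OPCL61 than in OPC (23.8% of all genes were lower), and both neuropilins were higher (24.5% of all genes were higher). Plxna2, which did not pass on that probe set (0.02 ± 0.25, adjusted p 0.950), was higher by 0.69 in OPCL61 on another (adjusted p 0.0109). Plxnc1, the receptor of Sema7a, had 3.66 and 3.66 in OPCL61 against 7.95 and 8.46 in OPC, and 3.66 and 3.48 in NSCL61 against 5.79 and 7.22 in NSC. It fell by 4.55 ± 0.37 (adjusted p 1.21e-05) in OPCL61 and by 2.93 ± 0.37 (adjusted p 0.000275) in NSCL61, to the level of 3.40 and 3.53 in ASTL61 and 3.30 and 3.57 in AST. No detection calls were among the files used here, so a signal below 5.18 is given as a signal and not as absence. Sema7a and its receptor thus moved in opposite directions in both lines. Plxnb3, a receptor of Sema5a, had 5.45 and 5.72 in OPCL61 against 8.35 and 8.35 in OPC, a difference of -2.76 ± 0.13 (adjusted p 4.20e-07), and 6.82 and 6.73 in NSCL61 against 5.53 and 5.63 in NSC, a difference of 1.19 ± 0.13 (adjusted p 0.000104). Plxnb1, the main receptor of Sema4d, fell by 0.70 ± 0.16 (adjusted p 0.00517) in OPCL61, and did not pass in NSCL61 (0.22 ± 0.16, adjusted p 0.317). Nrp2, a co-receptor of class 3 semaphorins and of VEGF, had 8.76 and 9.44 in OPCL61 against 5.56 and 5.80 in OPC, a difference of 3.42 ± 0.25 (adjusted p 5.90e-06). Nrp1 had 9.10 and 9.13 in OPCL61 against 7.99 and 7.56 in OPC, a difference of 1.34 ± 0.40 (adjusted p 0.0192) that was 1.13 without OPC replicate 2 (adjusted p 0.114), 1.35 without OPCL61 replicate 1 (adjusted p 0.0598) and 1.33 without OPCL61 replicate 2 (adjusted p 0.0684). In NSCL61 neither neuropilin passed on the probe set used, at -1.06 ± 0.40 for Nrp1 (adjusted p 0.0609) and 0.24 ± 0.25 for Nrp2 (adjusted p 0.509). Another probe set of Nrp2 went the other way in NSCL61 and passed narrowly, at -0.66 (adjusted p 0.0470).

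**Figure D3:**
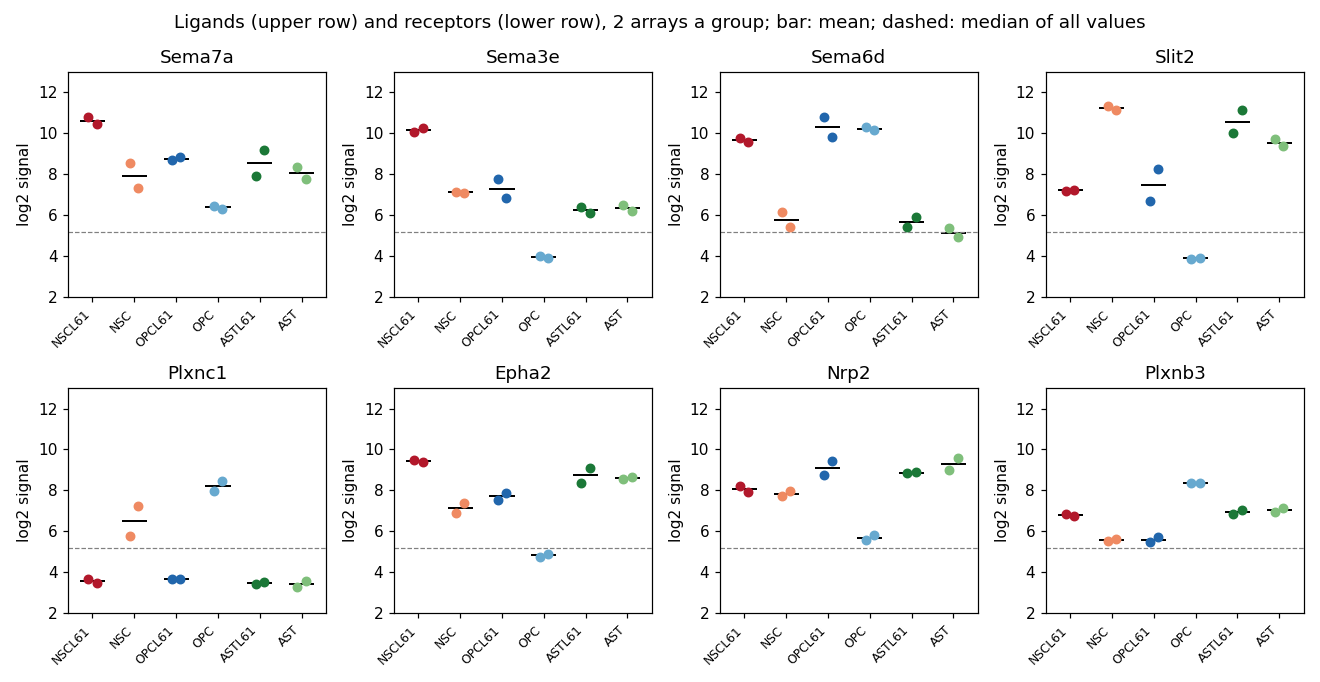
Log2 signal on each array (points, 2 a group; black bar, mean) for 4 ligands (upper row) and 4 receptors (lower row), with the dashed line at 5.18, the median of all values. Sema7a and Sema3e lie higher and Plxnc1 lower in NSCL61 and OPCL61 than in their parents, and Slit2, at 10.02 and 11.12 in ASTL61 against 9.71 and 9.36 in AST, lies apart in ASTL61 without passing the test.

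Of the ephrins, 2 of 5 ephrin-A and 2 of 3 ephrin-B genes were higher in OPCL61 and none lower, where 24.5% of all genes were higher and 23.8% lower. Efna5 had 7.51 and 8.41 in OPCL61 against 5.54 and 4.97 in OPC, a difference of 2.70 ± 0.28 (adjusted p 5.41e-05). Efnb2, a ligand of EphB4 in vessels, had 9.63 and 9.32 in OPCL61 against 7.66 and 7.02 in OPC, a difference of 2.14 ± 0.25 (adjusted p 0.000123). Its receptor Ephb4 was higher too, by 1.11 ± 0.12 (adjusted p 5.73e-05), with 6.49 and 6.64 in OPCL61 against 5.41 and 5.50 in OPC. Efna4 was higher by 1.51 ± 0.26 (adjusted p 0.00123). Efnb1 was higher by 0.58 ± 0.21 (adjusted p 0.0416) and did not pass without OPCL61 replicate 2 (0.40, adjusted p 0.225), OPC replicate 1 (0.58, adjusted p 0.121) or OPC replicate 2 (0.58, adjusted p 0.128). In NSCL61 none of the 3 ephrin-B genes passed and the ephrin-A changes were small: Efna1 was higher by 0.71 ± 0.25 (adjusted p 0.0467) and Efna2 fell by 0.58 ± 0.15 (adjusted p 0.0153). Efna1 lost its call without NSC replicate 1 (0.45, adjusted p 0.253) and without NSCL61 replicate 1 (0.49, adjusted p 0.274), and narrowly without several arrays of other groups. Efna2 lost it without NSC replicate 1 (-0.34, adjusted p 0.0888), NSCL61 replicate 1 (-0.55, adjusted p 0.0868) and NSCL61 replicate 2 (-0.61, adjusted p 0.0593).

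Among the Eph receptors, Epha2 was higher and Epha3 lower in both lines, although both the OPCL61 and the OPC signals of Epha3 lay below 5.18. Epha2, a receptor often raised in tumours, had 9.50 and 9.40 in NSCL61 against 6.89 and 7.39 in NSC, and 7.53 and 7.88 in OPCL61 against 4.74 and 4.91 in OPC. It was higher by 2.31 ± 0.25 (adjusted p 9.41e-05) in NSCL61 and by 2.88 ± 0.25 (adjusted p 1.61e-05) in OPCL61. Its promoter, printed above, holds the CRE letters, as a description. Epha3 had 3.21 and 3.01 in NSCL61 against 7.40 and 5.63 in NSC, and 2.97 and 3.18 in OPCL61 against 4.47 and 4.83 in OPC. It fell by 3.40 ± 0.47 (adjusted p 0.000485) in NSCL61 and by 1.58 ± 0.47 (adjusted p 0.0208) in OPCL61, where it did not pass without OPC replicate 2 (-1.40, adjusted p 0.109), OPCL61 replicate 1 (-1.47, adjusted p 0.0808) or OPCL61 replicate 2 (-1.68, adjusted p 0.0557). Ephb3 fell by 0.80 ± 0.18 (adjusted p 0.00631) in NSCL61 and by 0.89 ± 0.18 (adjusted p 0.00244) in OPCL61. Epha4 fell in NSCL61 by 1.45 ± 0.28 (adjusted p 0.00319), with 6.29 and 5.99 against 7.63 and 7.55 in NSC, and did not pass in OPCL61 (-0.16 ± 0.28, adjusted p 0.665). Ephb1, highest in OPC among the 6 groups, had 5.66 and 5.53 in OPCL61 against 7.05 and 7.59 in OPC, a difference of -1.73 ± 0.16 (adjusted p 3.04e-05).

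Among the members, the changes from parent to line in NSCL61 and OPCL61 differed most for Slit2. It had 7.19 and 7.25 in NSCL61 against 11.32 and 11.14 in NSC, and 6.68 and 8.27 in OPCL61 against 3.87 and 3.92 in OPC. The groups did not overlap in either comparison, and Slit2 fell by 4.01 ± 0.47 (adjusted p 0.000160) in NSCL61 and was higher by 3.59 ± 0.47 (adjusted p 0.000210) in OPCL61. The difference between the 2 changes was 7.60 ± 0.66 (adjusted p 2.72e-05). Slit2 thus stood between 6.68 and 8.27 in both lines while their parents were at the extremes of the series. Slit3 fell by 2.00 ± 0.24 (adjusted p 0.000221) in NSCL61, with 5.71 and 5.52 against 7.25 and 7.97 in NSC, and Slit1 lay between 5.13 and 5.51 on all 12 arrays. Robo1, a receptor of both, had 4.58 and 4.40 in NSCL61 against 6.70 and 7.20 in NSC, a difference of -2.46 ± 0.54 (adjusted p 0.00624). In OPCL61 Robo1 had 8.60 and 6.84 against 7.57 and 7.22 in OPC, which overlapped (0.33 ± 0.54, adjusted p 0.653). Slit2, Slit3 and Robo1 were therefore all lower in NSCL61 than in NSC, the comparison in which the fibroblast and pericyte markers also differ; their part was not tested.

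Of the netrins and their receptors, Ntn4 and Unc5c passed in both lines and Unc5b in OPCL61, on the probe sets used. Dcc passed in neither line on that basis, but fell in OPCL61 on 2 other probe sets (-1.57 and -1.75), described below. Ntn4, a netrin of basement membranes, was higher by 1.43 ± 0.45 (adjusted p 0.0315) in NSCL61, with 7.98 and 8.57 against 7.61 and 6.08 in NSC, and by 1.53 ± 0.45 (adjusted p 0.0183) in OPCL61, with 9.14 and 8.55 against 7.46 and 7.18 in OPC. Both calls rested on single arrays: the NSCL61 difference was 0.66 without NSC replicate 2 (adjusted p 0.202), 1.72 without NSCL61 replicate 1 (adjusted p 0.0565) and 1.13 without NSCL61 replicate 2 (adjusted p 0.178). The OPCL61 difference was 1.24 without OPCL61 replicate 1 (adjusted p 0.101) and 1.39 without OPC replicate 2 (adjusted p 0.0960). Ntn1, the founding attractant of the family, passed in neither line, at -0.24 ± 0.51 (adjusted p 0.753) in NSCL61 and -1.07 ± 0.51 (adjusted p 0.111) in OPCL61. Unc5c, a receptor for repulsion by netrin, had 5.54 and 5.65 in NSCL61 against 8.47 and 7.75 in NSC, and 5.39 and 5.26 in OPCL61 against 7.49 and 7.68 in OPC. It fell by 2.51 ± 0.21 (adjusted p 2.04e-05) in NSCL61 and by 2.26 ± 0.21 (adjusted p 2.66e-05) in OPCL61. Unc5b, its relative, had 8.82 and 8.17 in OPCL61 against 6.05 and 5.62 in OPC, a difference of 2.66 ± 0.26 (adjusted p 3.63e-05), and did not pass in NSCL61 (0.02 ± 0.26, adjusted p 0.964). The 2 Unc5 receptors thus moved in opposite directions in OPCL61.

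In the astrocyte line no member passed. Of 48 members, 0 passed in ASTL61 minus AST by limma, where 0.0235% of all genes did (3 genes, Cxcl3, Cxcl5 and Ackr3), and 0 had an unadjusted p under 0.05, where 939 of 12787 genes had one. The count was also 0 without any 1 array. The largest change was that of Slit2, 1.04 ± 0.47 (adjusted p 0.686), with 10.02 and 11.12 in ASTL61 against 9.71 and 9.36 in AST. Epha2 had 8.37 and 9.11 in ASTL61 against 8.58 and 8.67 in AST, and Sema3e 6.39 and 6.11 against 6.49 and 6.19, so both overlapped. The astrocyte line differed from the neural stem cell line in its changes for 16 members (25.3% of all genes passed that test). The change in OPCL61 differed from that in ASTL61 for 21 (35.3% of all genes), and from that in NSCL61 for 21 (37.8% of all genes; 18% higher, 19.8% lower).

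The parents differed before any Ras gene was added. In OPC minus NSC, 25 members passed (8 higher, 17 lower in OPC), where 51.4% of all genes passed (27.1% higher, 24.3% lower). In AST minus NSC, 17 passed (7 higher, 10 lower in AST), where 30.5% of all genes passed (15.4% higher, 15% lower), and leaving out AST replicate 1 gave 11, AST replicate 2 gave 9. In OPC minus AST, 29 passed (12 higher, 17 lower in OPC), where 51.6% of all genes passed (26% higher, 25.7% lower). These 3 comparisons share arrays with each other and with the line comparisons above, so their values are given side by side only. OPC had less Slit2 and Sema3c than the other parents: Slit2 differed by -7.34 ± 0.47 (adjusted p 1.43e-06) against NSC and -5.64 ± 0.47 (adjusted p 9.33e-06) against AST, and Sema3c differed by -5.02 ± 0.32 (adjusted p 1.38e-06) and -3.87 ± 0.32 (adjusted p 8.93e-06). Efna5, Nrp2 and Unc5b were lower in OPC as well. Against NSC and then AST, Efna5 differed by -3.41 ± 0.28 (adjusted p 7.79e-06) and -3.39 ± 0.28 (adjusted p 9.39e-06), Nrp2 by -2.17 ± 0.25 (adjusted p 7.51e-05) and -3.61 ± 0.25 (adjusted p 2.99e-06), and Unc5b by -3.02 ± 0.26 (adjusted p 1.05e-05) and -2.45 ± 0.26 (adjusted p 4.67e-05). OPC instead carried more Sema6d, by 4.44 ± 0.34 (adjusted p 5.20e-06) against NSC and 5.08 ± 0.34 (adjusted p 2.66e-06) against AST, and more Ephb1, by 2.84 ± 0.16 (adjusted p 7.55e-07) and 2.76 ± 0.16 (adjusted p 1.10e-06). Plxnb3 and Plxnc1 were also higher in OPC, by 2.77 ± 0.13 (adjusted p 1.91e-07) and 1.70 ± 0.37 (adjusted p 0.00396) against NSC and by 1.32 ± 0.13 (adjusted p 2.80e-05) and 4.77 ± 0.37 (adjusted p 6.41e-06) against AST. Some members passed only on probe sets other than those used. On such probe sets Dcc was higher in OPC, by 5.06 and 4.98 against NSC and by 4.92 and 4.96 against AST. Sema6a was higher there by 2.29 and 2.49 in the same order. Sema3f was lower in OPC, at -0.89 and -1.82 against NSC and -0.68 and -1.27 against AST. AST stood out for Efna1, the ligand of EphA2, with 8.71 and 8.91 in AST against 5.44 and 5.95 in NSC (3.12 ± 0.25, adjusted p 4.31e-05), and in ASTL61 it had 8.72 and 8.62. AST was lower than NSC for Plxnc1 (-3.07 ± 0.37, adjusted p 0.000437) and Unc5c (-2.27 ± 0.21, adjusted p 0.000110).

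Fewer members differed between the OPCL61 and NSCL61 lines than between their parents. In OPCL61 minus NSCL61, 11 members passed (6 higher, 5 lower in OPCL61), where 26.6% of all genes passed, and the count was 6 without NSCL61 replicate 1 and 6 without NSCL61 replicate 2. The mean absolute log2 difference of the 48 members was 0.58 between these lines (0.47 over all genes tested) and 1.42 between OPC and NSC (0.85 over all genes tested). For 33 of the 48 members (68.8%) the difference was smaller between the lines, as it was for 65.2% of all genes tested. On the probe sets used, Robo1 was the widest, at 3.23 ± 0.54 (adjusted p 0.00235), followed by Sema3e at -2.86 ± 0.25 (adjusted p 6.25e-05) and Ntn1 at 2.25 ± 0.51 (adjusted p 0.0105). The 2 other probe sets of Dcc gave 3.24 (adjusted p 2.68e-07) and 2.95 (adjusted p 8.60e-05). The Ntn1 difference had an adjusted p of 0.0603 without NSCL61 replicate 1 (2.24), 0.0560 without NSCL61 replicate 2 (2.26) and 0.0630 without OPCL61 replicate 1 (1.80). Plxnb3 differed by -1.19 ± 0.13 (adjusted p 0.000212) and Epha2 by -1.74 ± 0.25 (adjusted p 0.000939). In ASTL61 minus NSCL61, 22 members passed (12 higher, 10 lower in ASTL61), where 32.7% of all genes passed, with a count of 14 without either NSCL61 replicate. Sema6d (-3.99 ± 0.34, adjusted p 3.92e-05), Sema3e (-3.89 ± 0.25, adjusted p 7.37e-06), Slit2 (3.36 ± 0.47, adjusted p 0.000625) and Sema3c (3.18 ± 0.32, adjusted p 9.70e-05) led. In OPCL61 minus ASTL61, 22 passed (10 higher, 12 lower in OPCL61), where 36.7% of all genes passed, and the count was 14 without ASTL61 replicate 2. Sema6d (4.64 ± 0.34, adjusted p 1.39e-05), Sema3c (-3.54 ± 0.32, adjusted p 4.47e-05) and Efna1 (-2.92 ± 0.25, adjusted p 3.02e-05) led there.

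**Figure D4:**
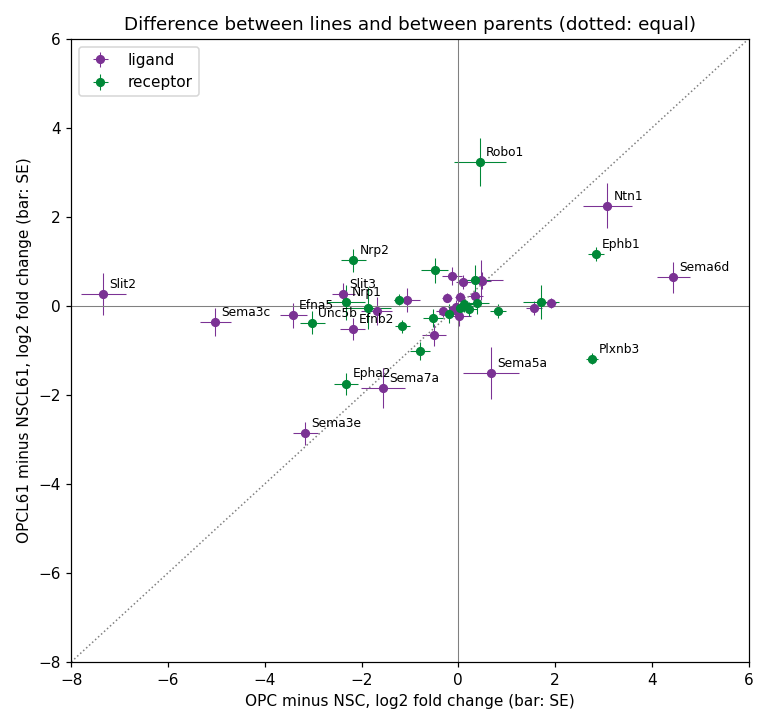
Log2 fold change of each tested member between OPCL61 and NSCL61 (vertical) against that between OPC and NSC (horizontal), with standard errors as bars. Ligands are purple and receptors green, and the dotted line marks equal differences. Slit2, at 0.26 between the lines and -7.34 between the parents, and Sema3c lie near 0 on the vertical axis, and Robo1 and Ntn1 lie above it.

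Probe sets of 12 members disagreed. The brightest probe set of Dcc, the netrin receptor, stayed between 6.21 and 6.55 on all 12 arrays, whereas another gave 7.14 and 6.13 in OPCL61 against 8.17 and 8.59 in OPC and at most 3.72 in the other groups. On that probe set Dcc fell by 1.75 ± 0.27 (adjusted p 0.000599 over the 23080 probe sets tested separately) in OPCL61, and another gave -1.57 ± 0.13 (adjusted p 1.03e-05). Sema3d, below 5.18 on its brightest probe set, had on another 3.23 and 3.35 in NSCL61 against 6.41 and 6.40 in NSC, a difference of -3.12 ± 0.19 (adjusted p 2.69e-06), and 3.40 and 3.34 in OPCL61 against 5.79 and 5.15 in OPC. Sema6a passed in OPCL61 at 0.34 ± 0.10 (adjusted p 0.0223) on the brightest probe set and fell by 0.65 ± 0.23 (adjusted p 0.0413) on another, so no direction is given for it in that line. The first call was lost without OPC replicate 1 (0.33, adjusted p 0.0816), OPC replicate 2 (0.35, adjusted p 0.0743) or OPCL61 replicate 2 (0.29, adjusted p 0.103). Sema3f, flat at 9.35 to 9.54, was lower in NSCL61 than in NSC on its other 2 probe sets, with differences of -0.65 ± 0.17 (adjusted p 0.0148) and -1.52 ± 0.39 (adjusted p 0.0122). A second probe set of Plxnb1 gave 4.66 and 4.47 in OPCL61 against 6.97 and 7.11 in OPC, a difference of -2.47 ± 0.22 (adjusted p 1.71e-05), in the direction of the first.

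**Figure D5:**
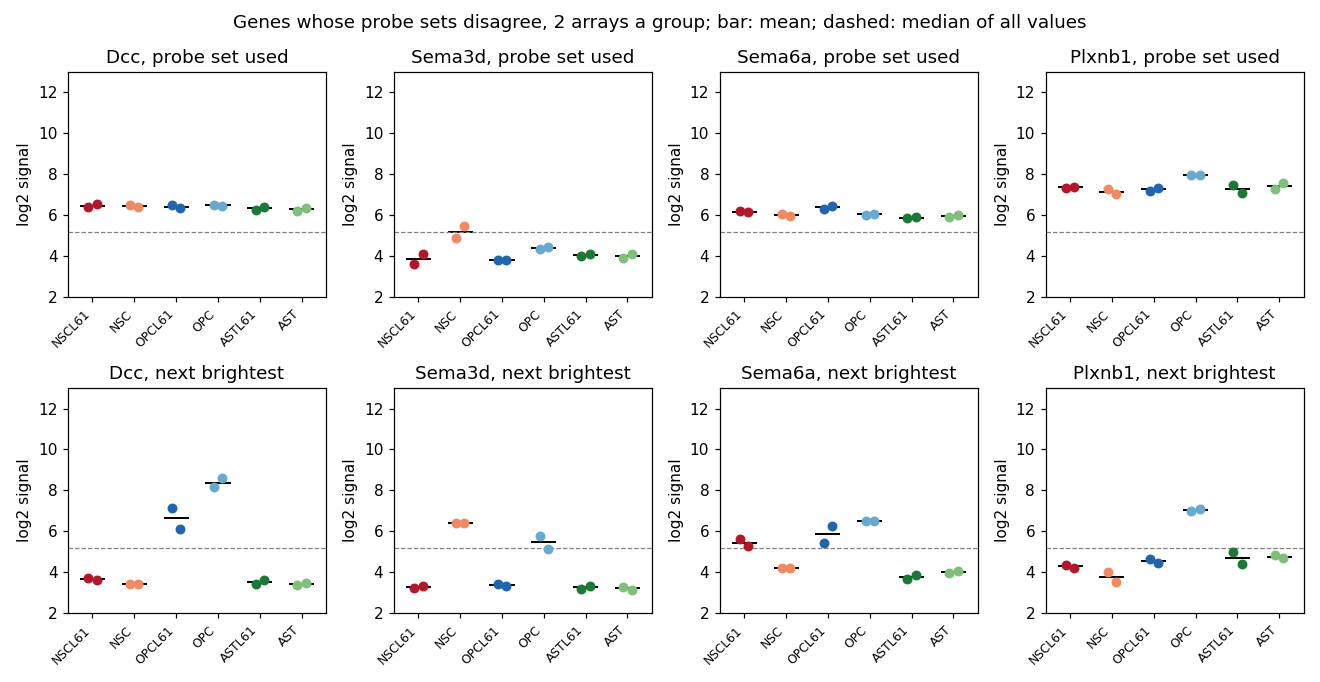
Log2 signal on each array (points, 2 a group; black bar, mean) for Dcc, Sema3d, Sema6a and Plxnb1, on the probe set used (upper row) and the next brightest (lower row), with the dashed line at 5.18. The next brightest Dcc probe set is high in OPC, lower in OPCL61 and below the line in the other 4 groups, while the probe set used is flat.

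Downstream and partner genes of the same systems were counted from 5 lists. Of 98 listed genes 80 were tested, and 13 were higher and 19 lower in NSCL61 than in NSC, and 16 higher and 23 lower in OPCL61 than in OPC, that is 40.0% and 48.8% of them. Among 18 semaphorin and plexin effectors, 1 was higher and 8 were lower in NSCL61 (20.7% of all genes were higher and 17.1% lower), and 2 were higher and 6 lower in OPCL61 (24.5% and 23.8% of all genes). Those lower in NSCL61 included Mical1, an actin-oxidising enzyme bound by plexins (-2.22 ± 0.16, adjusted p 1.01e-05), and Farp2, an exchange factor of plexin A1 (-1.77 ± 0.14, adjusted p 1.73e-05). Plxdc2, a plexin domain protein on that list, fell by 2.93 ± 0.19 (adjusted p 4.09e-06) there. Among 20 Eph and ephrin effectors, Vav3, an exchange factor used by Eph receptors, was higher by 4.16 ± 0.33 (adjusted p 1.54e-05) in NSCL61, and Chn1, a Rac inhibitor that acts below EphA4, by 2.98 ± 0.25 (adjusted p 1.87e-05). In OPCL61, Fyn, a kinase used by several guidance receptors in oligodendrocytes, fell by 2.50 ± 0.21 (adjusted p 1.65e-05). Nrcam, an adhesion partner of neuropilins, was higher by 7.37 ± 0.48 (adjusted p 4.72e-06) in NSCL61 and fell by 2.95 ± 0.48 (adjusted p 0.000814) in OPCL61. Cntn1, a cell adhesion molecule, fell by 6.01 ± 0.24 (adjusted p 1.72e-07) in OPCL61, and Met, a receptor that associates with plexins of the B class, was higher by 4.36 ± 0.23 (adjusted p 7.98e-07). None of the 80 passed in ASTL61 minus AST. These shares lie near the 37.8% and 48.3% of all genes.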

How the data were processed

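The authors deposited log2 signal values, one column for each of 12 arrays. How background was corrected and arrays were normalised is not given in the sources used here. Per the labels' protocols, 5 µg of total RNA was labelled by one-cycle in vitro transcription. The table held 45101 probe sets, and gene names came from the platform annotation, using probe sets with 1 symbol only. Each gene was read from its brightest probe set on average, and genes whose mean in at least 1 group lay above 5.18 (12787) were tested. One limma fit (version 3.58.1, in R 4.3.3) had 6 group means, with Benjamini-Hochberg adjustment over all genes tested and a threshold of 0.05; total degrees of freedom were 9.30. An exact permutation test of 2 arrays against 2 cannot go below 0.333. The number of arrays limits the precision. Named genes are the members, with up to 12 in full per comparison, largest changes first (other members given in full were added after their values were seen), and for the partner lists up to 3 a list by smallest p. Nrcam, named by that rule in NSCL61, is also given in OPCL61, where it ranked 5 in its list. The fit was tested on simulated data. The members and lists were chosen with earlier results of these data known. The Hras and Trp53 transcripts are not analysed here. Promoters are RefSeq entries of GRCm38.p6. Figures used matplotlib.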

Additional observations from a re-analysis of the deposited data

Results flagged for a closer look

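These values are differences between the log2 changes of 2 lines, each tested as an interaction of the same fit and past an adjusted p of 0.05. No explanation was tested. For OPCL61 change minus NSCL61 change, Slit2 gave 7.60, Plxnb3 -3.95 and Sema4d -1.61, and these 3 passed in opposite directions in the lines. The same difference was 4.66 for Sema3c, -3.80 for Sema6d, 3.21 for Efna5, 3.19 for Nrp2 and 2.78 for Robo1, which passed in 1 of the lines only.

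For ASTL61 change minus NSCL61 change, Slit2 gave 5.05, Sema3c 4.33, Epha3 4.01, Plxnc1 2.97, Slit3 2.50 and Unc5c 2.30, all of which had fallen in NSCL61. Sema6d gave -3.36 and Sema3e -3.12, both higher in NSCL61 than in NSC. For OPCL61 change minus ASTL61 change, Nrp2 gave 3.84, Sema3e 3.42, Epha2 2.77, Efna5 2.67, Unc5b 2.60 and Slit2 2.55, all higher in OPCL61 than in OPC. Plxnc1 gave -4.58 and Plxnb3 -2.68, both lower in OPCL61.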

How the results depend on the processing

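Of 177 member results past the threshold, 118 kept their direction and call in every alternative that tested them. The other 59 lost the call in at least 1. Not every alternative tested all 177: 134 were tested with the filter at the 75th percentile and 163 with probe sets averaged. Of the 177, 1 reversed: Sema6a in OPCL61 minus OPC, at -0.0046 when the probe sets of a gene were averaged, where its probe sets disagree. Leaving out 1 array at a time, the counts of members ranged from 18 to 23 for NSCL61 minus NSC, 21 to 31 for OPCL61 minus OPC, 0 to 0 for ASTL61 minus AST, 23 to 28 for OPC minus NSC, 9 to 17 for AST minus NSC, 23 to 32 for OPC minus AST, 6 to 12 for OPCL61 minus NSCL61, 14 to 23 for ASTL61 minus NSCL61 and 14 to 22 for OPCL61 minus ASTL61. Where that leaves 1 array in a group, it is assumed to vary like the other groups. With only the arrays of each comparison in the fit, 19 of the 177 results lost their call. For each group the replicate 1 minus replicate 2 difference was taken per gene, and these differences were correlated between groups. Over 15 group pairs the correlation ran from -0.20 to 0.11. The 18S control signal was higher on replicate 2 in NSCL61, NSC, OPC and AST, and on replicate 1 in ASTL61 and OPCL61. Whether same-numbered arrays were handled together is not settled by these values, so the main fit did not use the replicate number. With the number as a replicate block, 22, 29, 0, 25, 17, 31, 12, 23 and 22 members passed in the same order of comparisons, and 2 of the 177 results lost their call. With crossed numbers for ASTL61 minus NSCL61, an alternative chosen after seeing the data, 22 passed. Counting a member when any of its probe sets passed, also chosen after seeing the data, gave 28 for NSCL61 minus NSC and 31 for OPCL61 minus OPC. As 41 members had over 1 probe set, this rule gives a gene more chances to be counted. The share of all genes under it was not computed, and the shares given above are for 1 probe set a gene. These 2 counts are therefore not to be read as a result about the members.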
